A study of Homo sapiens with 4 samples.

Results

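The genes described here are CTSG, ELANE, PRTN3, AZU1, MPO, LYZ, SRGN, DEFA4, RNASE2 and SERPINB1. They encode proteins of the granules of myeloid cells, among them lysozyme, except for SERPINB1, which encodes a cytosolic inhibitor of granule proteases. The 10 genes were chosen by name, with earlier results of these data known. Each was found once among the 25680 gene rows of every deposited table. All 10 passed the filter on low counts that left 16108 genes for testing. RNA-seq was made from THP-1, an established human monocytic leukaemia line, and the design asks how expression changes when PIWIL4 is knocked down in leukaemia cells. The control group was transduced by lentivirus with a scrambled hairpin RNA (Scrambled, 2 libraries), and the other group with a hairpin against PIWIL4 (shPIWIL4, 2 libraries). Cells of both groups were sorted 48 hours after transduction, so virus and sorting are common to both. Groups follow the titles of the samples, since the label for treatment holds the word scrambled in both groups. The labels name a single construct against PIWIL4 and a single cell line, and effects of lower PIWIL4 and other effects of that hairpin cannot be told apart. The labels do not say that the libraries of a group came from separate cultures, so the p-values measure the spread between these libraries, which may be technical.

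Granule proteins are made early in myeloid differentiation, mostly at the promyelocyte stage, and are packed into azurophil (primary) granules. There the positively charged enzymes are held by serglycin, a proteoglycan whose core protein is encoded by SRGN. CTSG (cathepsin G), ELANE (neutrophil elastase), PRTN3 (proteinase 3) and AZU1 (azurocidin) belong to the chymotrypsin-like serine protease family, and azurocidin has lost the enzyme activity. MPO encodes myeloperoxidase, LYZ the bacterial cell wall enzyme lysozyme, DEFA4 an alpha-defensin and RNASE2 the eosinophil-derived neurotoxin, a ribonuclease. SERPINB1 encodes an inhibitor in the cytosol that blocks elastase, cathepsin G and proteinase 3. Monocytes and their precursors share part of this programme with neutrophils.

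Total counts per library ran from 31458079 to 53657246. PIWIL4 itself stood at 38.5 and 37.2 CPM in Scrambled libraries 1 and 2 and at 17.8 and 17.4 CPM in the shPIWIL4 libraries (CPM, counts-per-million scaled by TMM factors). The line's monocytic markers were present at unlike levels. Over the 4 libraries CD33 stood at 68.2 to 75.6 CPM, MNDA at 160.1 to 388.9 CPM and CD68 at 162.0 to 350.8 CPM. FCGR1A stood at 90.4 to 124.6 CPM, CSF1R at 33.4 to 48.4 CPM and ITGAM at 25.3 to 26.4 CPM. CD14 was low at 1.71 to 2.45 CPM, and so was CD86 at 0.75 to 5.89 CPM. CEACAM8 and LTF, markers of neutrophil stages later than the promyelocyte, were near 0: CEACAM8 had no count in any library, where 3 counts correspond to at most 0.0954 CPM, and LTF had at most 1 count. The other neutrophil markers listed were mixed. CSF3R stood at 225.6 to 323.4 CPM and CXCR2 at 15.9 to 20.4 CPM, while CAMP reached at most 0.87 CPM and FCGR3B at most 3 counts.

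Promoter sequence was on hand for 5 of the 10 genes. AZU1, PRTN3 and ELANE lie next to each other on chromosome 19, and CTSG lies on chromosome 14, so the promoters of CTSG and of 2 genes of the chromosome 19 group are shown to compare protease genes that moved by different amounts. Each line gives the 250 bases before the RefSeq start of the gene (GRCh38.p14), 5′ to 3′ along the gene's own strand. Capitals mark every TATAAG, TTGGGCAA and AGGAAG on either strand. CTSG is at chr14:24576251-24576500 on the minus strand, AZU1 at chr19:827587-827836 on the plus strand and PRTN3 at chr19:840749-840998 on the plus strand.
CTSG: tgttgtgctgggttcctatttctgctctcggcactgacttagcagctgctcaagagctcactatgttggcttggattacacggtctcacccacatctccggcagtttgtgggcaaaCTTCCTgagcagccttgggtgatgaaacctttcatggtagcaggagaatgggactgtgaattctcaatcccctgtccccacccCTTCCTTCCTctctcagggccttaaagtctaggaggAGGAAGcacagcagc
AZU1: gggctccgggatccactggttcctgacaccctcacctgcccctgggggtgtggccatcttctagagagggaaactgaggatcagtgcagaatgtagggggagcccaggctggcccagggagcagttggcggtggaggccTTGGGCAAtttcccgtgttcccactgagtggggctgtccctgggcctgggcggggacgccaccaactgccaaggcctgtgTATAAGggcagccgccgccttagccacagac
PRTN3: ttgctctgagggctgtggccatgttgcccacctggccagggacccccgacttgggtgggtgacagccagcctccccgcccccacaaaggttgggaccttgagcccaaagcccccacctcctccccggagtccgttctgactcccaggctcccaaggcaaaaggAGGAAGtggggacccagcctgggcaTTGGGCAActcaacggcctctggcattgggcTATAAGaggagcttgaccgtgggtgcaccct
TATAAG began 31 bases before the start in both AZU1 and PRTN3, and neither this motif nor TATAAA occurred in the CTSG window. Of the 5 genes with a promoter sequence, 4 held TATAAG, so it was not particular to the chromosome 19 genes. In SERPINB1, which changed least, it began 30 bases before the start, and RNASE2 held it on the opposite strand. The 8 bases TTGGGCAA began 111 bases before the start of AZU1 and 62 bases before that of PRTN3. Of 27305 RefSeq promoters of the same length, 0.78% held TTGGGCAA on either strand and 5.09% held TATAAG. The motif AGGAAG was found 4 times in the CTSG window, with an overlapping pair on the opposite strand, and 1 time in PRTN3, and 28.7% of promoters held it. TTGGGCAA contains a match to TTGCNNAA on its opposite strand, a pattern that 9.13% of promoters held. The motifs were chosen with the sequences in view, and a match is a description of the letters only.

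In the shPIWIL4 libraries 9 of the 10 granule genes were higher and 1, MPO, was lower. This stands against a comparison in which 57.7% of all tested genes were called, 28.7% higher and 29.1% lower, by edgeR's quasi-likelihood test at an adjusted p under 0.05. The shPIWIL4 and Scrambled libraries did not overlap for 9 of the 10 genes, and for 78.6% of all genes tested. The median log2 fold change was 0.88 over the 10 genes and -0.0035 over all 16108. Since the 10 genes were chosen with earlier results known, these contrasts describe the set and are no test of it. Upper-quartile scaling moved the median of all genes to -0.12 and called 3446 genes higher and 5717 lower, in place of 4618 and 4683, and 8 of the 10 genes were then higher and MPO lower. In bulk RNA, more cells of a type and more RNA of a gene per cell cannot be told apart.

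**Figure D1:**
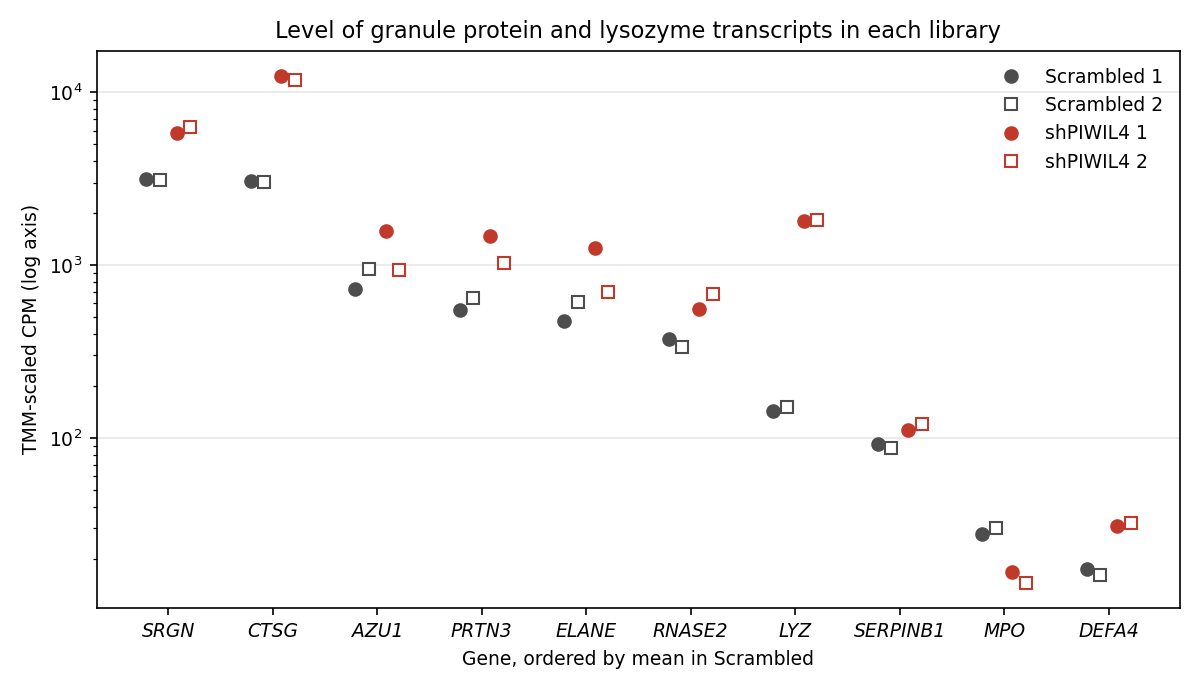
TMM-scaled CPM (log axis) of the 10 granule genes in the 2 Scrambled and 2 shPIWIL4 libraries, 1 point per library. LYZ and CTSG are far apart between the groups, MPO is lower in both shPIWIL4 libraries, and for AZU1 shPIWIL4 library 2 lies within the Scrambled range.

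LYZ had the largest change of the 10. It gave 4558 and 7996 counts in the Scrambled libraries, against 91354 and 94449 counts in the shPIWIL4 libraries. Scaled, these were 143.5 and 151.5 CPM against 1802.9 and 1817.5 CPM, or 147.5 ± 5.64 and 1810.2 ± 10.3 CPM (SD, n = 2 each). Libraries of 1 group lay close together, and the groups were far apart. The log2 fold change was 3.62 (SE 0.10), which is 12.3-fold (adjusted p = 4.79e-08, edgeR). Of 10103 genes that reached a mean of 10 CPM in the higher group, only 2 rose more. Per transcript length, LYZ went from 186.6 and 202.9 TPM to 2499.2 and 2430.5 TPM (transcripts-per-million), and from rank 577 and 534 among all genes to rank 54 in both shPIWIL4 libraries.

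CTSG, the most abundant of the granule genes per length, rose 3.98-fold. Its counts were 96794 and 159834 in the Scrambled libraries and 627792 and 611809 in the shPIWIL4 libraries. In CPM it stood at 3047.1 and 3027.6 against 12390.0 and 11772.9, and both shPIWIL4 libraries lay far above both controls. The log2 fold change was 1.99 (SE 0.10; adjusted p = 1.05e-06, edgeR), and 35 of the 10103 genes, or 0.346%, rose more. By TPM, CTSG ranked 17 and 12 in Scrambled libraries 1 and 2, with 6500.2 and 6655.5 TPM. It ranked 1 in both shPIWIL4 libraries, with 28178.9 and 25831.2 TPM, so that 2.82% and 2.58% of all TPM came from this gene.

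SRGN was already abundant in the controls, at 4968.8 and 5023.6 TPM, and stood at 9752.3 and 10125.6 TPM in the shPIWIL4 libraries. In CPM these were 3161.1 and 3101.4 against 5819.4 and 6263.0, with no overlap. The log2 fold change was 0.95 (SE 0.10; adjusted p = 4.96e-05, edgeR). CTSG and SRGN did not keep their proportion: there were 1.31 and 1.33 TPM of CTSG for each TPM of SRGN in the Scrambled libraries and 2.89 and 2.55 in the shPIWIL4 libraries. LYZ also gained on SRGN, from 0.0376 and 0.0404 to 0.256 and 0.24 by TPM.

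**Figure D2:**
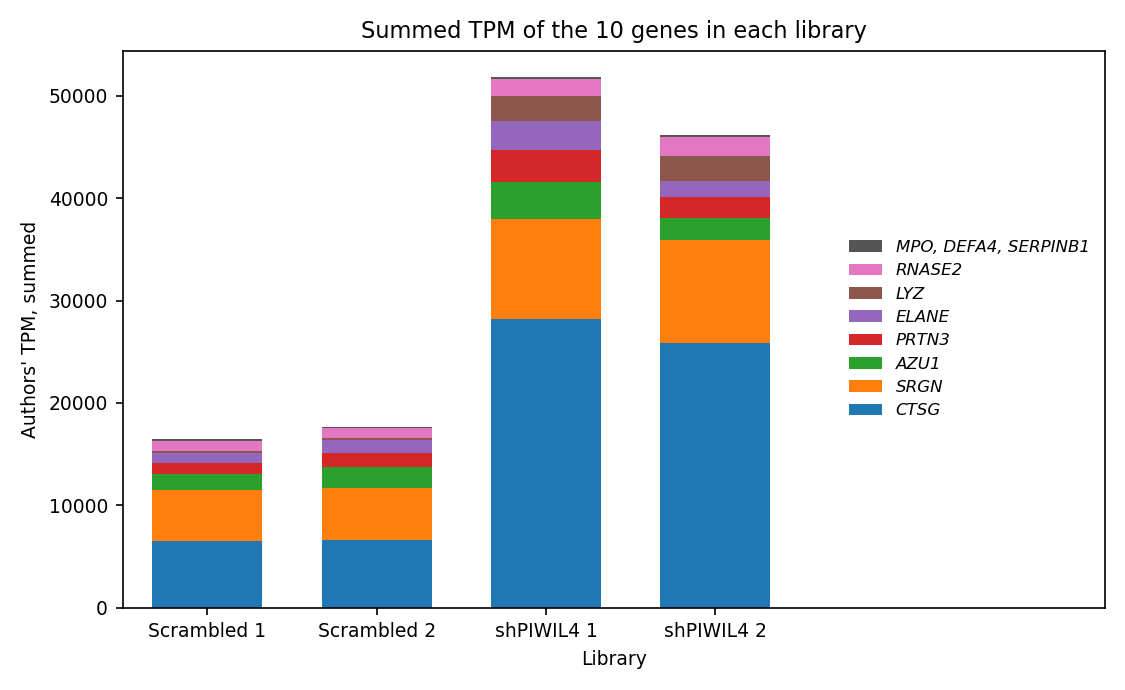
TPM of the 10 granule genes (vertical axis, the authors' values), stacked by gene for each of the 4 libraries. The stacks make up 1.65% and 1.77% of all TPM in the Scrambled libraries and 5.18% and 4.62% in the shPIWIL4 libraries, and CTSG is the tallest band of each.

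Together the 10 genes took up 0.87% and 0.914% of the counts of the 2 Scrambled libraries, and 2.5% and 2.26% of those of the 2 shPIWIL4 libraries. The widest 95% Wilson interval of these shares was ± 0.0043 percentage points, which covers counting error only, and is far narrower than the gap between libraries of a group. The means were 0.892% ± 0.031 and 2.38% ± 0.169 (SD, n = 2 each), a ratio of 2.67. An exact two-sided permutation test gave p = 0.33, the smallest that 2 libraries against 2 allow. CTSG alone made up 0.88 percentage points of the difference of 1.49. The other 9 genes went from 0.563% and 0.605% to 1.26% and 1.12%.

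The remaining serine protease genes, PRTN3, ELANE and AZU1, were higher on average, but their 2 shPIWIL4 libraries differed from each other. PRTN3 stood at 552.0 and 643.0 CPM in the Scrambled libraries and at 1472.0 and 1022.4 CPM in the shPIWIL4 libraries. Its groups did not overlap, and the log2 fold change was 1.06 (SE 0.16; adjusted p = 4.09e-04, edgeR). ELANE stood at 473.1 and 607.6 CPM in the Scrambled libraries against 1250.3 and 699.5 CPM. Here the lower shPIWIL4 library lay just above the higher Scrambled library, and the log2 fold change was 0.85 (SE 0.23; adjusted p = 0.0102, edgeR).

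AZU1 was the only granule gene whose groups overlapped. It had 730.3 and 946.3 CPM in the Scrambled libraries and 1580.5 and 937.7 CPM in the shPIWIL4 libraries. The second shPIWIL4 library was thus below the second Scrambled library. The log2 fold change was 0.59 (SE 0.21; adjusted p = 0.039, edgeR), and the call rested on shPIWIL4 library 1: without it the log2 fold change was 0.17 and the adjusted p 0.121. ELANE without shPIWIL4 library 1 had a log2 fold change of 0.38, and 1.22 without shPIWIL4 library 2. Its adjusted p rose to 0.0983 with DESeq2 and 0.121 with no filter on low counts, and that of AZU1 to 0.231 and 0.211.

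**Figure D3:**
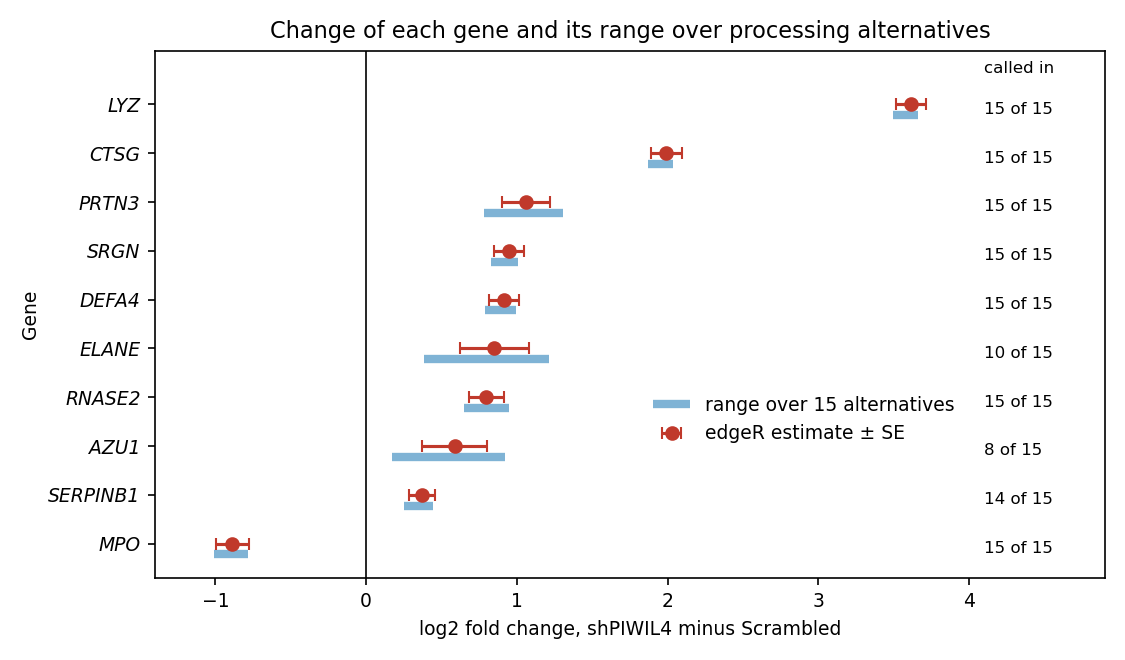
Log2 fold change (shPIWIL4 minus Scrambled) of the 10 granule genes, with the standard error of edgeR's fit, the range over 15 alternative fits and, at the right, in how many of these the gene was called. LYZ and CTSG have narrow ranges far from 0, and AZU1, which ranges from 0.17 to 0.92, comes closest to 0. The alternatives include a GC offset and crossed replicate numbers, both added after the data were seen.

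The difference between the 2 shPIWIL4 libraries was wider for these 3 neighbouring genes than for nearly all others. ELANE was 1.79 times, AZU1 1.69 times and PRTN3 1.44 times as high in shPIWIL4 library 1 as in library 2. Among 2240 genes that averaged 100 CPM or more, none had a larger difference between the shPIWIL4 libraries than ELANE, 4 had a larger one than AZU1 and 22 than PRTN3. In the Scrambled group the same 3 genes were higher in library 2, by 0.36, 0.37 and 0.22 on the log2 scale for ELANE, AZU1 and PRTN3. The median size of this difference over the 2240 genes was 0.071 in the Scrambled and 0.135 in the shPIWIL4 group. CTSG, of the same family but on chromosome 14, differed by -0.01 and -0.07.

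Base composition moved with these differences. The transcripts of ELANE, PRTN3 and AZU1 are 66.8%, 66.4% and 63.4% G and C in GENCODE 29. These values lie above 99%, 98.7% and 95% of the 9587 genes that had a value and averaged 10 CPM or more. Over the 246 of these genes with at least 65% G and C, the median difference of library 2 from library 1 was 0.20 in the Scrambled and -0.46 in the shPIWIL4 group. Over the 1629 of them below 40% it was 0.05 and 0.06. When each library's trend on GC content was taken out, a step added after these differences were seen, the difference between the shPIWIL4 libraries went from -0.84 to -0.39 for ELANE, from -0.75 to -0.43 for AZU1 and from -0.53 to -0.09 for PRTN3. The log2 fold changes between the groups were then 0.84, 0.57 and 1.07, with adjusted p of 5.34e-04, 7.59e-03 and 4.82e-06 in edgeR's quasi-likelihood test.

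**Figure D4:**
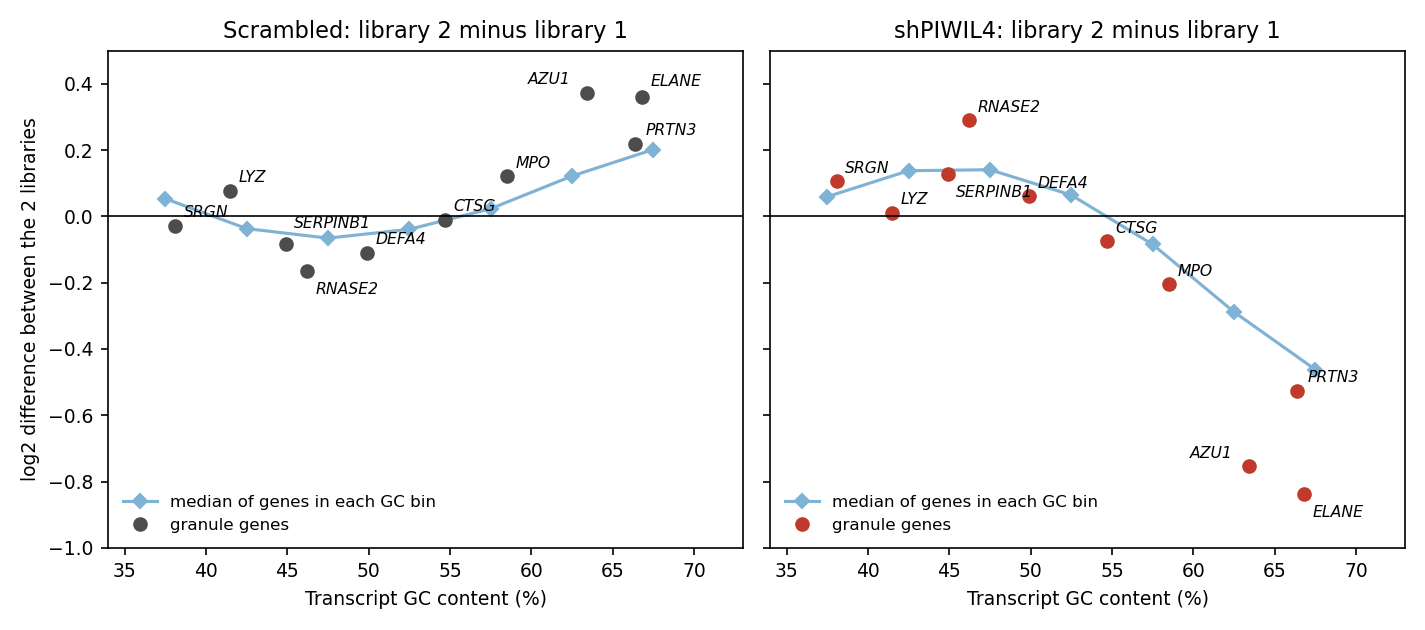
Log2 difference between library 2 and library 1 of a group (vertical axis) against transcript GC content in percent (horizontal axis), for the 10 granule genes (circles) and the median of genes in bins of GC content (line, with the open end bins drawn as wide as the others). In the shPIWIL4 panel the line falls to -0.46 at the GC-rich end, where PRTN3 lies near it and ELANE and AZU1 lie below it.

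Proportions within the protease family are given here as ratios of TPM in each library. ELANE had 0.929 and 1.02 TPM for each TPM of PRTN3 in the Scrambled libraries and 0.92 and 0.741 in the shPIWIL4 libraries. AZU1 to PRTN3 was 1.45 and 1.61 against 1.18 and 1.01, and ELANE to AZU1 was 0.639 and 0.634 against 0.781 and 0.736. CTSG to ELANE was 6.44 and 4.98 in the Scrambled libraries and 9.91 and 16.8 in the shPIWIL4 libraries. None of these 4 ratios overlapped between the groups. That of ELANE to PRTN3 came closest, at 0.929 in Scrambled library 1 and 0.92 in shPIWIL4 library 1. An exact two-sided permutation test gave p = 0.33 for each ratio, the smallest possible with 2 libraries against 2. These ratios are therefore a description only. That of CTSG to ELANE also takes in the difference of ELANE between the 2 shPIWIL4 libraries described above. The 4 protease family genes together held 1.02% and 1.14% of TPM in the controls and 3.77% and 3.15% after knockdown.

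SERPINB1, the inhibitor of these proteases, changed least. It stood at 92.1 and 86.9 CPM against 110.5 and 120.9 CPM, with no overlap. The log2 fold change was 0.37 (SE 0.09; adjusted p = 4.57e-03, edgeR), and the call was lost without Scrambled library 2, with an adjusted p of 0.0534. For each TPM of SERPINB1 there were 156.6 and 180.5 TPM of the 4 protease family genes in the Scrambled libraries and 454.2 and 359.3 in the shPIWIL4 libraries. This sum includes AZU1, whose product has no enzyme activity.

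MPO was the only one of the 10 genes that fell. It was low in THP-1, with 883 and 1598 counts in the Scrambled libraries and 853 and 756 in the shPIWIL4 libraries. These were 27.8 and 30.3 CPM against 16.8 and 14.6 CPM, and the groups were apart. MPO fell by 0.89 on the log2 scale (SE 0.11; adjusted p = 1.24e-04, edgeR), a fall that 650 of the 10103 genes, or 6.43%, exceeded. Per length MPO stood at 17.0 and 19.1 TPM in the controls, against 1009.3 and 1335.8 TPM for ELANE.

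DEFA4 and RNASE2 completed the rises. DEFA4 had 551 and 847 counts in the Scrambled libraries and 1557 and 1666 in the shPIWIL4 libraries. Scaled, it stood at 17.4 and 16.0 CPM against 30.7 and 32.1 CPM, a log2 fold change of 0.91 (SE 0.10, adjusted p = 5.45e-05, edgeR). RNASE2 stood at 374.3 and 333.5 CPM against 553.4 and 677.2 CPM, a log2 fold change of 0.80 (SE 0.11; adjusted p = 3.2e-04, edgeR). Neither gene overlapped between the groups. Of 50-base stretches of the RNASE2 transcripts, 3.26% also occur in transcripts of other genes, among them its paralog RNASE3, and the shares were 8.23% for LYZ and 4.66% for AZU1. The other 7 genes shared none.

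Ordered by mean TPM, the controls ran CTSG, SRGN, AZU1, PRTN3, ELANE, RNASE2, LYZ, SERPINB1, DEFA4 and MPO. PRTN3, at 1087.0 and 1304.9 TPM, and ELANE, at 1009.3 and 1335.8 TPM, overlapped there, and RNASE2 lay just below them at 1003.7 and 921.5 TPM. LYZ, at 186.6 and 202.9 TPM, lay well under these. SERPINB1 and DEFA4 were also close, at 64.98 and 63.17 against 63.1 and 60.1 TPM. In the shPIWIL4 libraries LYZ, at 2499.2 and 2430.5 TPM, had moved into the range of AZU1, PRTN3 and ELANE, which ran from 1534.8 to 3642.0 TPM.

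Other genes of the granule pathway moved both ways, in a comparison that called 28.7% of all tested genes higher and 29.1% lower. Of 19 tested further genes of primary granules and their assembly, 11 were higher, 5 lower and 3 not called, with a median log2 fold change of 0.75. Without Scrambled library 1, 3 were lower. CTSC, whose product removes the activation dipeptide from the granule serine proteases, rose from 120.2 ± 2.38 to 276.4 ± 21.6 CPM (log2 fold change 1.20; adjusted p = 6.44e-06, edgeR). CALR, a chaperone of the endoplasmic reticulum that binds the myeloperoxidase precursor, rose from 1566.9 to 4686.4 CPM. CD68, a lysosomal membrane glycoprotein, rose by 1.09 on the log2 scale.

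Among genes of secondary and tertiary granules and other secreted neutrophil products, 18 of 24 were tested, of which 11 were higher, 3 lower and 4 not called, with a median of 0.99. The 4 genes named here are those with the smallest p among called genes with at least a 2-fold change and 10 CPM in the higher group. CHI3L1, a chitinase-like protein also made by macrophages, rose from 1020.9 to 3256.3 CPM and CYBB, the catalytic subunit of the phagocyte oxidase, from 15.8 to 54.3 CPM. HPSE, which cleaves heparan sulfate, rose by 1.15 and ARG1, an arginase, fell by 4.13 on the log2 scale. LCN2, CRISP3, OLFM4 and CEACAM8, which are typical of later neutrophil stages, were at 0 in all 4 libraries.

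Of 14 tested protease inhibitors other than SERPINB1, 5 were higher, 3 lower and 6 not called, with a median of 0.15, and without Scrambled library 2 only 2 were higher. In the serglycin list, enzymes that build glycosaminoglycan chains, 9 of 25 were higher, 6 lower and 10 not called, and the median was -0.07. EXT2, a heparan sulfate polymerase subunit, rose by 1.39 on the log2 scale. Granule sorting and release genes gave 8 higher, 5 lower and 9 not called of 22, with a median of 0.18, and 3 were lower without Scrambled library 1 or without Scrambled library 2. AP3D1, a subunit of the adaptor complex that sorts cargo to granules and lysosomes, rose by 1.07, and SYTL1, a RAB27 effector, fell by 1.61. Of 9 tested relatives of the proteases and of lysozyme, 1 was higher, 4 lower and 4 not called, with a median of 0.13, and without shPIWIL4 library 1 none was higher. PRSS57, a serine protease of neutrophil granules, fell from 54.7 ± 10.2 to 19.0 ± 8.17 CPM (adjusted p = 5.52e-04, edgeR). Beside the counts of these lists stand the shares over all tested genes, 28.7% higher and 29.1% lower. The upper-quartile shift of -0.12 is larger than the medians of the glycosaminoglycan list and of the regulators and neighbouring genes below. No direction is given for these 3 sets, and the median of the relatives, 0.13, is only about as large as the shift.

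**Figure D5:**
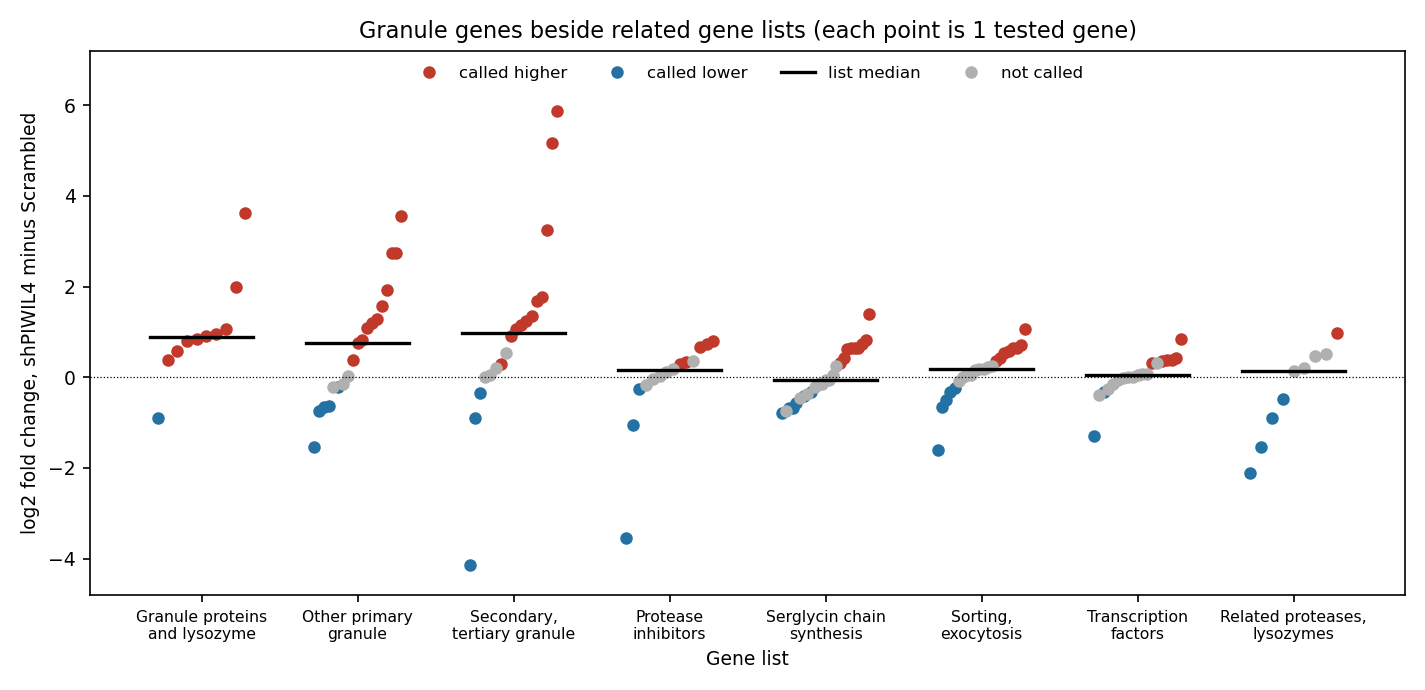
Log2 fold change (shPIWIL4 minus Scrambled, vertical axis) of every tested gene of the granule set and 7 related lists (horizontal axis), 1 point per gene, coloured by its call in edgeR's test, with a bar at each list's median. The granule genes have 9 points called higher and 1 lower, and each of the other lists holds genes called in both directions.

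Of 19 tested transcription factors listed as acting on granule genes, 6 were higher, 2 lower and 11 not called, with a median of 0.06. Over all tested genes 28.7% were called higher and 29.1% lower. The lower genes numbered 5 without shPIWIL4 library 1, so that 11 of the list were then called, and 1 without Scrambled library 1. With the GC offset 5 were higher and 5 lower. GFI1, a repressor needed for granulocyte development, rose from 235.5 to 316.4 CPM and MYB, which acts on the ELANE and MPO genes, from 698.9 to 908.0 CPM. KLF4, FLI1, CBFB and IRF8 rose by 0.85, 0.38, 0.35 and 0.31 on the log2 scale, and GATA2 and ETV6 fell by 1.30 and 0.32. CEBPA, a driver of granulocyte and monocyte genes, stood at 383.2 and 381.7 CPM (log2 fold change -0.01, SE 0.09; adjusted p = 0.962, edgeR). CEBPE stood at 8.14 and 8.57 CPM and SPI1 at 109.1 and 98.0 CPM in Scrambled and shPIWIL4, with adjusted p of 0.841 and 0.376 in edgeR's test.

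The genes beside the granule genes moved in both directions. Of 48 protein-coding neighbours, up to 3 on each side in the RefSeq order, 41 were tested. Of these, 13 were higher, 11 lower and 17 not called, near the shares of all tested genes, 28.7% higher and 29.1% lower. The median of 0.10 was smaller in size than the upper-quartile shift of -0.12, so no direction is given. CFD, complement factor D, which follows ELANE in the chromosome 19 group, fell by 0.89 on the log2 scale (SE 0.13; adjusted p = 3.05e-04, edgeR). GZMH, GZMB and CMA1, the family members beside CTSG, had at most 89 counts in any library. DEFB1, a beta-defensin gene near DEFA4 named after its values were seen, stood at 80.3 and 67.8 CPM in the Scrambled libraries and at 197.2 and 251.5 CPM in the shPIWIL4 libraries.

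Genes whose levels over the 4 libraries ran most like those of LYZ and MPO were found by Euclidean distance of centred log2 CPM among 9756 genes that averaged 10 CPM or more. Nearest to LYZ were FRMD3, TREM2 and SIGLEC1, at distances of 0.585, 0.727 and 0.86, with log2 fold changes of 3.09, 2.90 and 2.76. For MPO the nearest were ZMIZ1, GMIP and AHRR, at 0.0268, 0.0303 and 0.0368. With 4 libraries in 2 groups, such a distance mainly compares the sizes of the fold changes.

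Marker lists of other cell types were summed for each library as CPM of the unscaled total count. The 8 monocytic markers summed to 590 and 577 in the Scrambled and 922 and 970 in the shPIWIL4 libraries. Of these markers 3 were higher and 2 lower. Most of the rise came from CD68, from a mean of 163.2 to 346.3 CPM, and MNDA, from 164.9 to 364.1 CPM. FCGR1A rose from 96.5 to 117.0 CPM, CSF1R fell from 47.5 to 33.8 CPM and CD86 from 5.76 to 0.84 CPM. CD14, CD33 and ITGAM were not called. The 6 neutrophil markers summed to 337 and 350 against 277 and 236, nearly all from CSF3R, and 1 of 3 tested was lower. Eosinophil markers summed to 57.5 and 56.2 against 37.7 and 38.4, with 1 of 3 tested lower. Mast cell and basophil markers summed to 53.4 and 59.5 against 27.1 and 21.5, with 1 of 2 tested lower. Erythroid and platelet markers summed to 7.41 and 9.21 against 1.36 and 0.895 (the 1 tested was lower). T and NK cell markers summed to 29.7 and 33.4 against 27.2 and 24.0 (none of 3 tested called). B cell markers summed to 52.3 and 55.2 against 69.0 and 64.5 (1 higher, 3 lower of 4 tested). Stromal and epithelial markers summed to 85.8 and 78.4 against 95.2 and 104.0 (1 higher, 3 lower of 4 tested). The B cell sum was mostly PAX5, at 40.5 and 42.9 against 64.2 and 61.5 CPM, and the stromal and epithelial sum mostly PECAM1, at 80.4 and 71.9 against 94.4 and 105.7 CPM. Each of these was the gene called higher in its list. PRG2, GATA2, ITGA2B and NKG7 made up most of the eosinophil, mast cell and basophil, erythroid and platelet, and T and NK cell sums. The part of these shifts in the granule gene results was not tested.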

How the data were processed

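RNA-seq of 4 THP-1 libraries was used, 2 with a scrambled hairpin and 2 with a hairpin against PIWIL4. STAR, featureCounts, DESeq2 and the build hg19 are named per the submitters' processing notes. Versions, annotation and strandedness: not given in the sources used here. Each table the authors deposited for a library holds a raw count per gene, with TPM and FPKM derived from it. The FPKM values deposited by the authors were used only to recover gene lengths. A normalized table of the series was not used here. The 10 genes and all lists were chosen with earlier results of these data known.

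The test on counts was that of edgeR 4.0.16 (R 4.3.3), with filterByExpr (minimum count 10, minimum total 15), TMM factors and the robust quasi-likelihood F test on group, two-sided, with Benjamini-Hochberg adjustment over 16108 genes and calls at an adjusted p under 0.05. The SE is the size of the log2 fold change divided by the square root of F. TMM centres on all genes, so a change in total RNA per cell cannot be seen. The fit was tested on simulated data. Total counts were 31458079 and 51655687 (Scrambled) and 50689304 and 53657246 (shPIWIL4). Of the gene names, 28 had been turned into dates and are not named.

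Besides the 10 genes and PIWIL4, the text names from each list up to 4 called genes with a change of at least 2-fold and 10 CPM or more in the higher group, by smallest p, and all called regulators. One gene that this rule names is not reported here. The 3 genes most like LYZ and MPO, the genes with the largest and smallest log2 fold change, were named by distance. Alternatives were other scalings (library totals, RLE, upper quartile, TMM without the 10 genes), DESeq2 1.42.0, limma 3.58.1 on log2(TPM + 1), other filters, a replicate block and leaving out each library. A GC offset and crossed replicate numbers were added after seeing the data. Transcript GC content and shared 50-base stretches came from GENCODE 29, promoters from RefSeq (GRCh38.p14). RefSeq was used only for names and gene order besides these, since its build differs from that of the files. Without a known strand setting, reads of LYZ cannot be told from those of the gene that overlaps it on the opposite strand. The gene that overlaps SRGN lies on the same strand, where the strand setting cannot separate the reads.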

Additional observations from a re-analysis of the deposited data

How the results depend on the processing

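Over 15 alternatives, 137 of 150 fold change calls of the 10 genes kept their direction and their side of the threshold, 13 lost the call and 0 reversed. CTSG, LYZ, SRGN, PRTN3, DEFA4, RNASE2 and MPO were called in all 15. ELANE was called in 10, AZU1 in 8 and SERPINB1 in 14. The 15 include the crossed replicate numbers and the GC offset, which were added after the data were seen. Both of these called ELANE and AZU1, so the tallies of these genes lean on them. For ELANE the adjusted p was 0.0503 with library totals, 0.0983 with DESeq2, 0.0743 with limma on TPM, 0.121 with no filter and 0.0501 with the stricter filter (at least 10 CPM in 2 libraries). AZU1 was lost under the same 5 settings, with upper-quartile factors and without shPIWIL4 library 1. Genes called higher numbered 7 of 10 under those 5 settings and 8 with upper-quartile factors, and MPO was lower throughout. With the stricter filter, which tests fewer genes, 3010 genes were higher and 2992 lower, and 30 genes of the other lists were higher in place of 50. The higher genes then numbered 7 in the primary granule list, 4 in the secondary and tertiary granule list, 2 among the inhibitors, 5 in the glycosaminoglycan list and 0 among the relatives. The difference in the share of counts, 1.49 percentage points, was 0.609 without CTSG and 3.19 as summed TPM.

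Leaving out each library in turn gave 3560 to 5164 genes higher and 3525 to 5011 lower, 8 to 9 of the 10 genes higher and 1 lower, 42 to 52 genes of the other lists higher and 18 to 31 lower, and a share difference of 1.37 to 1.61 percentage points. Groups left with 1 library were assumed to vary like the other group. The GC offset gave 4687 higher and 5917 lower.

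The labels do not say what a replicate number shares. Same-numbered libraries deviated from their group means in opposite directions (r = -0.483 across 16108 genes, which are not independent replicates). The replicate block called 3921 genes higher and 4197 lower and left the 10 genes at 9 and 1. With crossed numbers 5728 were higher and 5641 lower, and the 10 genes stayed at 9 and 1.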

Other observations

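A few secreted defence proteins outside the 10 genes, chosen after their values were seen, were at low levels and higher in the shPIWIL4 libraries. HP, which encodes haptoglobin, stood at 0.126 and 0.303 CPM in the Scrambled libraries and at 1.83 and 2.67 CPM in the shPIWIL4 libraries. TCN1, a vitamin B12 carrier of neutrophil granules, stood at 3.43 and 2.9 CPM against 6.87 and 8.02 CPM. CFP, which encodes the complement protein properdin, stood at 2.71 and 3.01 CPM against 8.72 and 5.96 CPM. The groups did not overlap for any of the 3 genes, nor for 78.6% of all genes tested. HP had only 4 and 16 counts in the Scrambled libraries.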
